A study of Aspergillus niger with 6 samples.

Results

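The 45 genes described here encode proteins of the large subunit of the cytosolic ribosome in the mould Aspergillus niger. They were taken by annotation from a table of 11910 genes: the KEGG product name (a catalogue of gene functions) had to contain the words large subunit ribosomal protein, and names of the mitochondrial or bacterial type were left out. The 45 genes carry 43 product names, since RPL13A and RPL24 each have 2 genes. Symbols follow the KEGG names, which use the human numbering, and the numbers in parentheses are the protein numbers of the table.

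RNA came from mycelium of strain delta-rpnR, which lacks the predicted transcription factor gene rpnR, and from the control strain MA234.1. Both strains grew from conidia for 16 h at 30 °C on 1% glucose and then for 4 h on 25 mM xylose. The labels list 3 libraries per strain, while the design text speaks of duplicates, and nothing says whether they came from separate cultures. What else MA234.1 carries is not given in the sources used here, nor is the number of deletion transformants behind the libraries. The targeted gene was not analysed here, and no check of the strain labels was made through it. The table gives 1 value per gene and strain, read as the authors' FPKM (fragments per kilobase of transcript, scaled to the mapped fragments), together with the authors' q-value. No SD, n or depth stands behind the FPKM, so replicate spread enters only through that q. Genes are said to fall or rise only where that q is under 0.05, and the others are given as values. Where values come in pairs, the control stands first.

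The large subunit holds the site where peptide bonds are formed and the tunnel through which the new chain leaves. Its proteins are made in the cytosol, imported into the nucleolus, built onto ribosomal RNA and exported, and a few join in the cytoplasm. In budding yeast, ribosomal protein genes are among the most strongly transcribed genes, and they rise and fall together with growth rate and stress.

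Every one of the 45 genes had a lower value in the deletion strain, and 34 of them fell and none rose, by a q under 0.05 as the authors' deposited table gives it. Over all 9234 tested genes, 3.25% were called lower, 3.29% were called higher, and 48.7% had a value below the control. The authors' own flag for changed genes in their deposited table also asks for a 2-fold change and a value of at least 10. It marked the same number of members, 34, against 2.73% of tested genes on the lower side. Its added conditions could remove none of them, since all 34 were over 2-fold lower and no value lay under 15.9 FPKM. At a q under 0.01 there were 21 members (background 1.38%), and at a q under 0.1 there were 41 (background 4.58%). The control values of the 45 genes ran from 40.6 to 2342 FPKM with a median of 1186 FPKM, and the deletion values from 15.9 to 1433 FPKM with a median of 377 FPKM. The ratio of control to deletion FPKM had a median of 3.19 and reached from 1.40 for RPL10 to 3.83 for RPL30. Of the 45 genes, 42 were at least 2-fold lower, against 7.1% of all tested genes. At least 3-fold lower were 28 of them, against 2.91% of all tested genes. In mycelium measured in bulk, fewer cells of a kind and less RNA per cell cannot be told apart, and FPKM gives a share of the RNA, not an amount per cell.

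**Figure D1:**
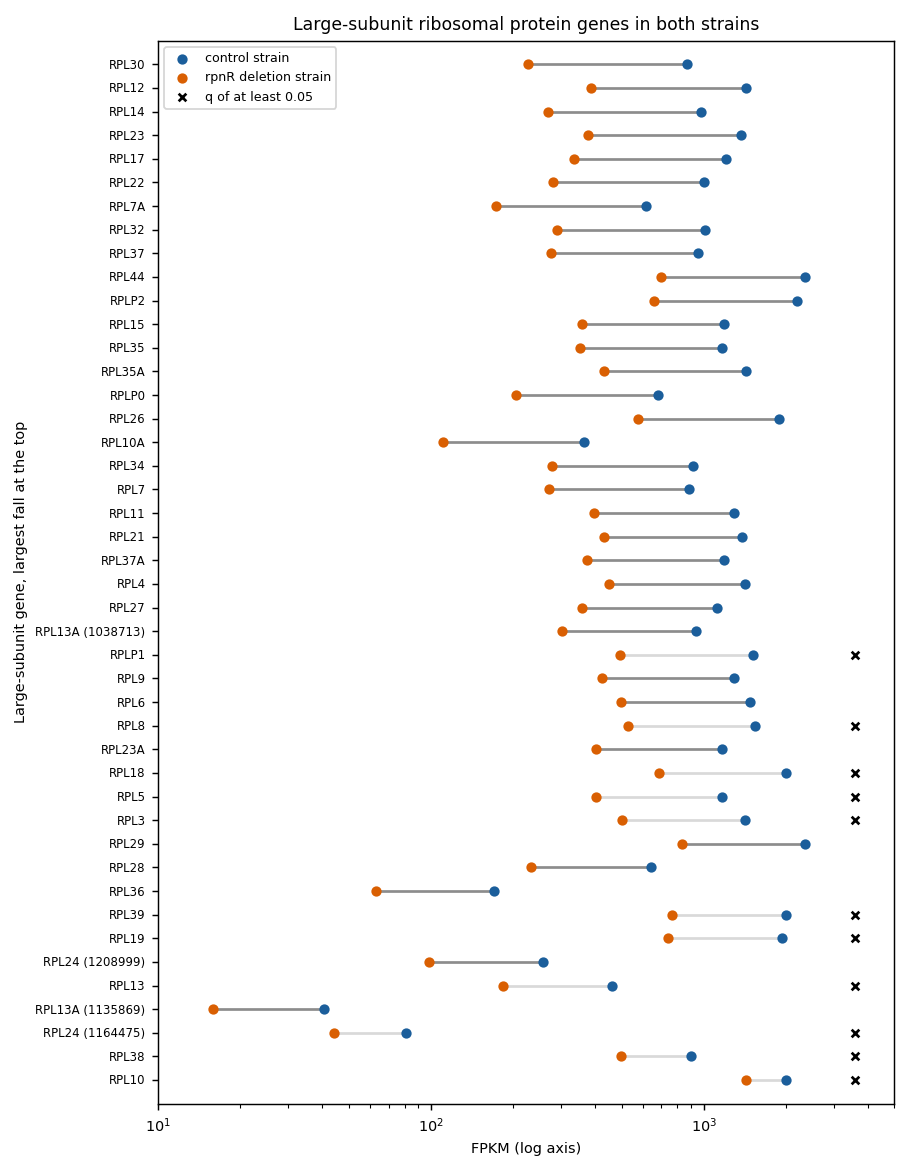
FPKM (log axis) of 44 large-subunit genes in the control strain (blue) and the deletion strain (orange), ordered by log2 ratio with the largest fall at the top; a cross marks a q of at least 0.05. The orange point lies left of the blue one in all 44 rows, and RPL10, at the bottom, has the shortest line, from 2009 to 1433 FPKM.

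On the log2(FPKM + 1) scale, where the ratio is deletion over control, the median was -1.67 and the quartiles were -1.74 and -1.49. The same median over all tested genes was 0.02. The SD of the log2 ratio among the 45 genes was 0.28, while the SD of their log2 control FPKM was 1.19. The genes differed from each other more in level than in change. Spearman's rank correlation between control and deletion FPKM was 0.94 and Pearson's r of the log2 values was 0.97, over 45 genes that share the same libraries. Both the gene with the lowest control value, RPL13A (1135869), at 40.6 and 15.9 FPKM, and the one with the highest, RPL29, at 2342 and 834 FPKM, were called lower.

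The proteins of the stalk were among the lower genes. The stalk is the flexible arm of the large subunit that recruits elongation factors. It consists of RPLP0 and the acidic proteins RPLP1 and RPLP2, and RPL12 lies at its base. RPLP0 fell from 679 to 205 FPKM (q = 0.00483, authors' deposited table), a log2 ratio of -1.73. RPLP2 fell from 2195 to 658 FPKM (q = 0.0120, authors' deposited table), and RPL12 from 1433 to 387 FPKM (q = 0.00483, authors' deposited table), which at -1.89 was the second largest fall of the 45. RPLP1 was at 1519 and 495 FPKM with a log2 ratio of -1.61, and its q of 0.0554 in the authors' deposited table missed the threshold. The order of the 4 levels was the same in both strains, with RPLP2 highest, then RPLP1, RPL12 and RPLP0.

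Around the peptidyl transferase centre, none of the 3 genes was called, against 34 of all 45 members and 3.25% of all tested genes called lower. A count over 3 genes does not set this group apart, and the difference was not tested. RPL3 and RPL8 reach with their extensions towards this centre, and RPL10 contacts the transfer RNA beside it. RPL3 was at 1421 and 504 FPKM, with a q of 0.0715 in the authors' deposited table. RPL8 was at 1540 and 527 FPKM, and the authors' deposited table gave a q of 0.0566. Their log2 ratios of -1.49 and -1.55 lay within the range of the called genes, which ran from -1.93 to -1.30. RPL10 stood apart at a log2 ratio of -0.49 (q = 0.792, authors' deposited table), the smallest of the 45.

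Genes for the exit tunnel fell in 5 of 7 cases, against 3.25% of all tested genes called lower. RPL4 and RPL17 line its narrow part, RPL39 lies further along it, and RPL19, RPL23A, RPL26 and RPL35 stand around its mouth, where chaperones and the signal recognition particle dock. RPL17 fell from 1210 to 335 FPKM, RPL26 from 1892 to 574 FPKM and RPL35 from 1167 to 352 FPKM, each with the lowest q there was, 0.0027, in the authors' deposited table. RPL4 fell from 1419 to 448 FPKM (q = 0.0392, authors' deposited table) and RPL23A from 1167 to 402 FPKM (q = 0.0355, authors' deposited table). RPL39, at 2009 and 765 FPKM (q = 0.0549, authors' deposited table), and RPL19, at 1937 and 740 FPKM (q = 0.0566, authors' deposited table), did not pass. These 2 had the highest control values of the 7 and the smallest log2 ratios, both -1.39. The eighth protein of this role group, RPL31, was not matched by the product name.

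RPL5 and RPL11 form a particle with 5S ribosomal RNA before they enter the subunit, and in mammals this particle also binds the ubiquitin ligase MDM2. RPL11 fell from 1286 to 396 FPKM (q = 0.0224, authors' deposited table). RPL5 was at 1167 and 404 FPKM with a q of 0.0533 in the authors' deposited table, just outside the threshold. Their log2 ratios were -1.70 and -1.53.

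Proteins that in yeast join the subunit late, in the cytoplasm, had ratios from the weakest of the 45, that of RPL10, to beyond the median. RPL29 fell from 2342 to 834 FPKM (q = 0.0109, authors' deposited table), and it had the highest control value of all 45 genes. One of 2 genes named RPL24, which forms a bridge to the small subunit, fell from 257 to 98.3 FPKM (1208999; q = 0.0415, authors' deposited table). The other RPL24 gene (1164475) was at 81.3 and 44.0 FPKM, a log2 ratio of -0.87 (q = 0.149, authors' deposited table). In yeast an assembly factor, Rlp24, carries the same type of domain, and the product name does not tell both kinds apart. With RPL10 and the 3 P proteins of the stalk, 4 of 7 genes of this role group were called, against 3.25% of all tested genes called lower. The median log2 ratio of the group was -1.49. RPL36A and RPL40, a ubiquitin fusion, were not matched by their symbols. RPL44, another name for the RPL36A family, fell from 2341 to 696 FPKM (q = 0.00832, authors' deposited table).

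Grouped by how widely the protein occurs in nature, the genes had nearly equal medians. Among 18 genes whose proteins have counterparts in all domains of life, 14 were called, against 3.25% of all tested genes called lower. These 18 genes had a median log2 ratio of -1.68. Among the other 27, found in archaea and eukaryotes or in eukaryotes alone, 20 were called and the median was -1.67. The difference between these groups was not tested.

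The largest falls came from several parts of the subunit. RPL30, which in yeast also represses the splicing of its own transcript, fell from 867 to 227 FPKM, a log2 ratio of -1.93 (q = 0.0027, authors' deposited table). RPL14 fell from 978 to 270 FPKM and RPL23, which lies at the interface with the small subunit, from 1365 to 377 FPKM, both with a log2 ratio of -1.85 and the same q. RPL37A, a zinc-binding protein with the median ratio of the 45, fell from 1186 to 372 FPKM. These with RPL17, RPL26 and RPL35 made up the 7 members with that q of 0.0027, which 171 genes had in the authors' deposited table as a whole.

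A further 12 called genes had log2 ratios from -1.83 to -1.46. RPL22 fell from 1004 to 281 FPKM, RPL32 from 1007 to 289 FPKM and RPL37 from 953 to 277 FPKM, with log2 ratios of -1.83, -1.80 and -1.78. Near the median lay RPL15 (from 1187 to 357 FPKM), RPL35A (from 1429 to 431 FPKM), RPL34 (from 916 to 279 FPKM), RPL7 (from 884 to 270.5 FPKM) and RPL21 (from 1384 to 431 FPKM). RPL27 fell from 1120 to 358 FPKM, RPL9 from 1287 to 425 FPKM and RPL6 from 1483 to 499.5 FPKM, with log2 ratios of -1.64, -1.60 and -1.57. RPL28, which budding yeast lacks under the human numbering, fell from 642 to 232 FPKM, a log2 ratio of -1.46. The q-values of these 12 genes in the authors' deposited table lay between 0.00483 and 0.0254.

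Weaker ratios were seen for 3 genes, and none of them was called. RPL10 had 2009 FPKM in the control and 1433 FPKM without rpnR, and RPL38 had 900 and 499 FPKM (log2 ratio -0.85; q = 0.156, authors' deposited table); RPL24 (1164475) is given above. In yeast RPL10 is among the last proteins to be built in and is needed before the subunits can join, and RPL38 is a small protein that yeast can grow without. RPL10 stayed among the most abundant messages. By FPKM it ranked 61 of all genes in the control and 101 in delta-rpnR, where it was the 1 large-subunit gene above 1000 FPKM, against 29 in the control. It made up 3.75% of the summed FPKM of the 45 genes in the control but 7.92% in delta-rpnR. The share of RPL38 was 1.68% and 2.76%. RPL30, at the other end, had 1.62% and 1.25%.

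**Figure D2:**
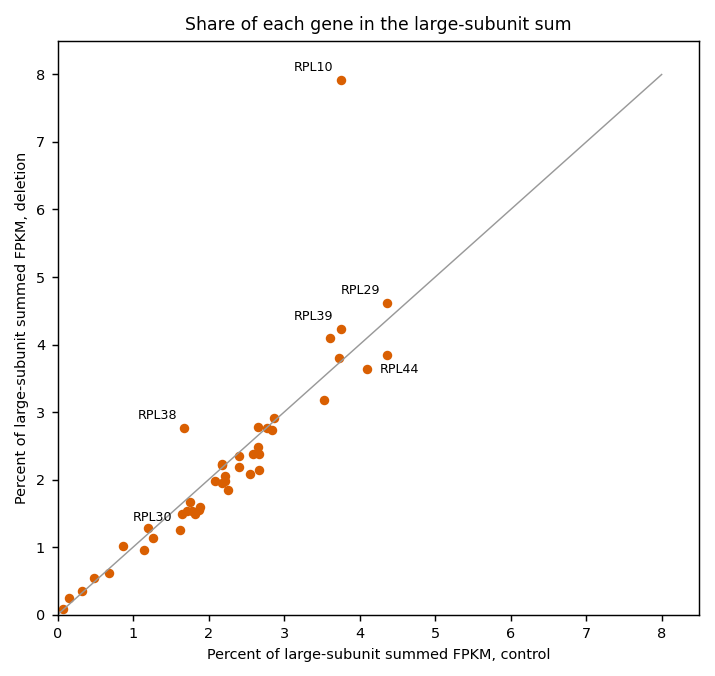
Each of 44 points is a large-subunit gene, placed by its percent of the summed large-subunit FPKM in the control (horizontal) and in the deletion strain (vertical); the line marks equal shares. Most points lie along the line, while RPL10 (3.75% and 7.92%) and RPL38 (1.68% and 2.76%) lie above it.

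The 11 genes that were not called did not form a separate group by ratio. Their log2 ratios ran from -1.61 to -0.49 with a median of -1.39, so 8 of the 11 were at least 2-fold lower, and the ranges of called and uncalled genes overlapped. Their median control value was 1519 FPKM, against 1167 FPKM for the 34 called genes. RPL18, at 1997 and 688 FPKM, was 2.90-fold lower with a q of 0.111 in the authors' deposited table. RPL36, at 171 and 63.0 FPKM, was 2.71-fold lower with a q of 0.00832 in the authors' deposited table. RPL13, at 463 and 184 FPKM, had a q of 0.0690 in the authors' deposited table. Just inside the threshold lay RPL13A (1135869) with a q of 0.0431 in the authors' deposited table. With an upper bound of the unadjusted p computed from the authors' q-values, 44 of the 45 genes came under 0.05, all but RPL10, against 8.85% of all tested genes on the lower side.

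The 2 genes named RPL13A differed in level but not in direction. The main one (1038713) fell from 940 to 303 FPKM (q = 0.00483, authors' deposited table), a log2 ratio of -1.63. The minor one (1135869), for which the table predicts 1 transmembrane segment, fell from 40.6 to 15.9 FPKM, a log2 ratio of -1.30. Reads that fit both genes could have been split between them by the authors' counting, so their separate levels are uncertain.

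Several gene models carried annotations foreign to a ribosomal protein. The model of RPL10A (1168731) also held domains of a flavin-dependent monooxygenase and was placed in secondary metabolism cluster 75. It fell from 364 to 110 FPKM (q = 0.0378, authors' deposited table). The model of RPL7A (1180290) also held a clathrin adaptor domain and fell from 612 to 174 FPKM (q = 0.00832, authors' deposited table). The model of RPL36 was predicted to have 6 transmembrane segments, and RPLP2 a secretion signal. Where a model joins 2 genes, its FPKM covers both. Without RPL10A and RPL7A, an alternative added after the values were seen, 32 of 43 genes were called.

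Other fused models held domains of large-subunit proteins that the product names did not find. A model with a Ribosomal_L18e domain behind a DNA helicase domain (1128253) was at 245 and 79.6 FPKM (q = 0.0158, authors' deposited table), a log2 ratio of -1.61. A model named as the omega-amidase NIT2 with a Ribosomal_L31e domain (52578) was at 366 and 186 FPKM (q = 0.134, authors' deposited table), a log2 ratio of -0.97. Both were looked up after the values were seen and are not among the 45.

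The abundance of the genes in the transcriptome shifted with them. Together the 45 genes held 6.48% of the control's summed FPKM and 2.07% of that of delta-rpnR. Of the 100 most abundant genes, 14 in the control were large-subunit genes, and none in delta-rpnR were. Their median rank by FPKM went from 143 to 407. Genes with a mean of both strains of at least 500 FPKM, a limit chosen after the values were seen, numbered 343 among those tested. They included 36 large-subunit genes, 27 of them called lower, and 28 small-subunit genes, 23 of them called lower. Of the other 279 genes, 1 was called lower and 5 higher, with a median log2 ratio of 0.19. Of the 45 large-subunit genes, 39 reached 500 FPKM in the control and 10 in delta-rpnR. Most of the 36 therefore passed through their control value, and the counts for these groups are a description only. The difference between these groups was not tested.

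The 1 other abundant gene called lower encodes RACK1 (1142510), a scaffold protein that sits on the small subunit of translating ribosomes. It fell from 763 to 249 FPKM (q = 0.0202, authors' deposited table), a log2 ratio of -1.61. Both tested genes with a NAC domain, the mark of the nascent polypeptide-associated complex that binds new chains at the tunnel mouth, were called lower too. The one that also has a UBA domain (1143492), the make-up of the alpha subunit, fell from 545 to 232 FPKM (q = 0.0340, authors' deposited table). The other NAC gene (1143220) fell from 391 to 157 FPKM (q = 0.0315, authors' deposited table). These 3 genes were named after their values were seen.

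**Figure D3:**
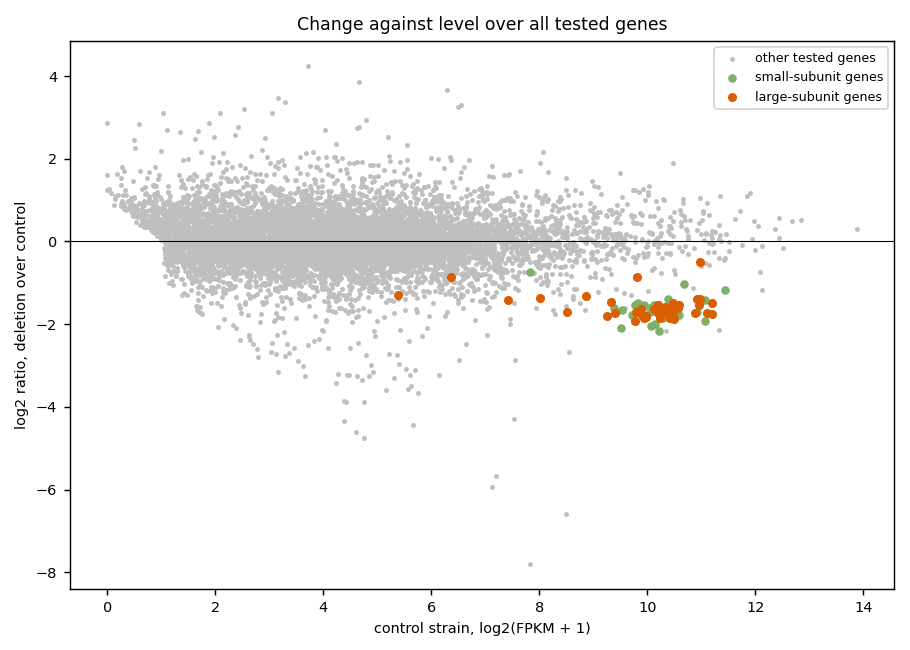
Log2 ratio of deletion over control against the control level, log2(FPKM + 1), for the 9234 tested genes; large-subunit genes are orange, small-subunit genes green and other genes grey. Most orange and green points form 1 cloud at high level and low ratio, where few grey points lie. Exceptions include RPL10, with a log2 ratio of -0.49, and RPL13A (1135869), with a control value of 40.6 FPKM.

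Genes of the small subunit and of ribosome production also lay mostly below the control. Of 32 small-subunit genes, 26 were called lower, with a median log2 ratio of -1.61, close to that of the large subunit; the difference was not tested. The small subunit's strongest members were RPS10, from 1190 to 262 FPKM, and RPSA, from 732 to 171 FPKM, at log2 ratios of -2.18 and -2.09 against -1.93 for RPL30. Among 64 tested genes of ribosome biogenesis, 5 were called lower and 1 higher, against 3.25% and 3.29% of all tested genes. Their median log2 ratio was -0.74. By the bound on the unadjusted p, 33 came under 0.05 on the lower side and 2 on the higher. Of all tested genes, 8.85% did so on the lower side. NOP56, a core protein of the particles that methylate ribosomal RNA, fell from 92.1 to 37.9 FPKM (q = 0.0254, authors' deposited table). One of the SNU13 genes (143825) stood at 26.0 FPKM in the control, and the table lists it at 0 for delta-rpnR (q = 0.0209, authors' deposited table). The other tested SNU13 gene (1145178), with the higher level, was at 133 and 70.7 FPKM (q = 0.104, authors' deposited table). NOG1, a GTPase of large-subunit assembly, fell from 42.7 to 18.1 FPKM (q = 0.0168, authors' deposited table). NMD3, the export adaptor of the large subunit whose release in yeast needs RPL10, was at 29.0 and 14.7 FPKM (q = 0.0850, authors' deposited table). Of 16 genes for RNA polymerases I and III, which make ribosomal and transfer RNA, 1 was called lower, against 3.25% of all tested genes. It was the polymerase III subunit RPC25, from 10.9 to 3.96 FPKM. All 16 had lower values in delta-rpnR, with a median log2 ratio of -0.61. By the bound on the unadjusted p, 6 of the 16 came under 0.05 on the lower side, against 8.85% of all tested genes.

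Among initiation factors, genes of 1 complex were called. Of 30 initiation factor genes, 6 were called lower and none higher (median log2 ratio -0.74), against 3.25% of all tested genes called lower. By the bound on the unadjusted p, 16 of the 30 came under 0.05 on the lower side, against 8.85% of all tested genes. All 6 were among the 9 subunits of eIF3, the complex that brings the small subunit to messenger RNA, a grouping made after the values were seen. Of the other 21 initiation factor genes, 18 had values below the control, with a median log2 ratio of -0.58. By the same bound, 8 of these 21 came under 0.05 on the lower side. EIF3B fell from 138 to 53.6 FPKM (q = 0.0140, authors' deposited table) and EIF3F from 80.8 to 33.1 FPKM (q = 0.0109, authors' deposited table). EIF6, which keeps immature large subunits from joining, was at 46.4 and 30.8 FPKM (q = 0.384, authors' deposited table). None of 4 genes for cytosolic elongation factors was called, a count near the 3.25% of all tested genes called lower. None came under 0.05 by the bound on the unadjusted p, against 8.85% of all tested genes on the lower side. With 4 genes, these counts do not set the list apart from all tested genes. Of the 4, 3 had values below the control, and the median log2 ratio was -0.52. EEF1A, which delivers transfer RNA, was at 4340 and 2581 FPKM. EEF2, which moves the ribosome along, had 1167 FPKM in the control and 957 FPKM without rpnR. The 2 genes named EEF1G had values on opposite sides of the control: 1143431 had 569 FPKM in the control and 304 FPKM without rpnR, and 1182312 had 610 and 938 FPKM. The pattern for nascent chain factors matched no product name.

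**Figure D4:**
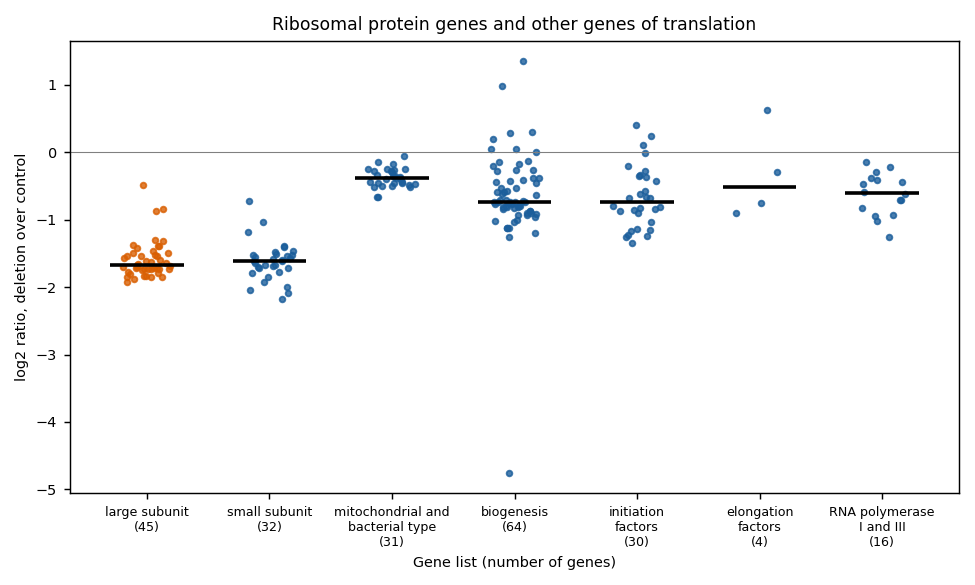
Log2 ratio of deletion over control for tested genes of 7 lists, with the number of genes under each name; points are genes, spread sideways at random, and bars are medians. The large subunit (-1.67) and the small subunit (-1.61) lie lowest, and the mitochondrial and bacterial type lies at -0.39.

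Ribosomal proteins of the mitochondrial or bacterial type gave a comparison within protein families. Of these 31 genes none was called, a count near the 3.25% of all tested genes called lower. By the bound on the unadjusted p none came under 0.05, against 8.85% of all tested genes on the lower side. All 31 values lay below the control, against 48.7% of all tested genes, with a median log2 ratio of -0.39. Of them, 11 shared a domain with 12 of the large-subunit genes, which made 12 pairs of genes. In all 12 pairs the cytosolic gene had the lower log2 ratio, and those of the 11 relatives ran from -0.66 to -0.26. The lowest log2 ratio of all 31 genes was -0.67, and the weakest of these 12 large-subunit genes was -1.30. Any pairing of them would have given the same count, so it adds nothing to the ranges. With the Ribosomal_L14 domain, RPL23 fell to 377 from 1365 FPKM, while MRPL14 (1084961) was at 120 and 98.9 FPKM (q = 0.833, authors' deposited table). With the Ribosomal_L11 domain, RPL12 fell as given above, while MRPL11 (1147478) was at 63.5 and 49.4 FPKM (q = 0.726, authors' deposited table). The other gene with the Ribosomal_L16 domain of RPL10, which has no product name (1144580), was at 61.3 and 47.3 FPKM, a log2 ratio of -0.37, close to the -0.49 of RPL10. The difference between cytosolic and mitochondrial genes was not tested, and the mitochondrial ones had a median control level of 60.7 FPKM.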

How the data were processed

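Cuffdiff 2.2.1, Cufflinks, TopHat2, Trimmomatic and CASAVA 1.8.3 appear in the submitters' processing notes, without roles. For the genome build, nothing is given in the sources used here. What was deposited holds, per the file headers, 1 expression value per gene and strain, read as the authors' FPKM because Cuffdiff reports that unit. The q-value is the authors' own, per the file headers. Depth is unknown, and the sums were 828095 FPKM (control) and 872090 FPKM (deletion).

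Genes with a q of 1 (2676, up to 7.50 FPKM) were taken as not tested, which left 9234. All 45 members were tested, without a filter on low values. A gene was called at a q under 0.05. Log2 ratios used log2(FPKM + 1), which understates changes of low genes. The bound on the unadjusted p is q times its rank over 9234. Lists were text patterns over KEGG names. Genes named were the members of fixed role groups, extremes, uncalled members and the strongest called genes of other lists. The members and lists were chosen with earlier results of these data known. Counting and medians (Python 3.11.15, pandas 2.3.3) were tested on simulated data. Values of 1 member are not reported here singly, though it is in all counts. No coordinates or sequences were matched to the protein numbers.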

Additional observations from a re-analysis of the deposited data

How the results depend on the processing

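No paired analysis was possible because the table holds 1 column per strain, and for the same reason no library could be left out in turn. At a q under 0.01, 21 of the 45 large-subunit genes and 9 small-subunit genes were called lower. The authors' own flag, a mean of at least 5 FPKM and the first annotation entry left the count at 34, and 1 gene per product name gave 33. The flag and the mean could not remove a called member. All 34 were over 2-fold lower, and no value of a member lay under 15.9 FPKM. The median log2 ratio was -1.64 with a pseudocount of 10, -1.69 after centring, -1.75 with each strain rescaled to 1000000 and -1.68 with 1 gene per product name. Without RPL10A and RPL7A it was -1.66. Rescaling to the values outside cytosolic ribosomal protein genes gave -1.87, but moved the median of all tested genes to -0.17, a difference of -1.70. All 225 recomputed log2 ratios of single genes stayed negative, as they had to. A pseudocount cannot change a sign, and centring and both rescalings only lowered each ratio. The share of summed FPKM was 2.08% in the deletion strain over tested genes only, and 8.13% and 2.68% without the 100 most abundant genes. At a q under 0.1, a setting added for the other lists after the values were seen, 15 biogenesis genes, 8 initiation factor genes and 2 RNA polymerase genes were called. Among the 15, UTP24 and REX1 (1118329) were higher, with log2 ratios of 0.98 and 1.35, and the rest were lower. Of all tested genes, 4.58% were called lower at this setting. With 1 value per strain, replicate spread could not be examined.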
